A study of Homo sapiens with 9 samples.

Results

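The 47 genes described here drive or carry out DNA replication and cell division, and were chosen by symbol from a table of 43424 gene symbols. Of them, 18 act at the start of replication or during S phase (S-phase genes), 28 act from entry into mitosis to the separation of the daughter cells (mitotic genes), and CCND1 acts earlier, in G1. All 47 were listed in the table and all 47 passed the filter on low values, which kept 14233 genes. Messenger RNA was read at its 3' end in 9 libraries of 3 groups, with 3 libraries in each. OV90CisR2 and OV90CisR1 are lines labelled resistant and kept in culture medium that contained cisplatin, a platinum drug that crosslinks DNA. OV90, labelled sensitive, was kept in the same medium without mention of the drug. Per the labels all 3 are ovarian cancer cells grown with fetal bovine serum. Since both resistant lines were kept in the drug, resistance and exposure to it cannot be told apart. The dose, the length of exposure and whether each resistant line is a clone are not stated in the labels. Nothing in the labels says that the libraries of a group came from separate cultures, so p-values measure only the spread between these libraries, which may be technical.

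Cells commit to division in G1, when cyclin-dependent kinases inactivate the RB family and release E2F factors, which switch on genes for origin licensing and nucleotide supply. A second programme follows in G2 and mitosis, in which MYBL2 with the MuvB complex and then FOXM1 switch on cyclin B, the mitotic kinases and the proteins of the spindle and kinetochore. Both sets of messages are abundant in cycling cells and scarce in resting ones, so that in a bulk sample their level depends in part on the share of cells in each phase. Fewer cells in a phase and less RNA per cell cannot be told apart in such samples. Platinum adducts are known to slow replication and to engage the checkpoints at the G1/S and G2/M borders.

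The deposited values were normalised reads, and the libraries held between 5825708 and 7607679 recovered reads. OV90CisR1 replicate 3 and OV90 replicate 3 stood apart from their groups, with Pearson correlations of 0.941 and 0.942 (OV90CisR1) and 0.955 and 0.957 (OV90) with the other libraries of their line over the 14233 genes, against 0.978 to 0.982 for every other pair of replicates. Results that rest on them are given below with and without them. The labelled tissue was set against its markers. Of 13 ovarian carcinoma markers only EPCAM and KRT8 passed the filter, PAX8 and MUC16 had 0 reads in OV90CisR2 and in OV90 and 1 read each in OV90CisR1, and WFDC2 and KRT19 had 0 reads in all libraries. The 13 together had 102 to 129 normalised reads in OV90CisR2, 65.1 to 99.7 in OV90CisR1 and 49.4 to 76.5 in OV90. KRT8 rose in OV90CisR2 against OV90 (3.32, limma, adjusted p = 0.04), on few recovered reads: 221 in OV90CisR2, 48 in OV90CisR1 and 35 in OV90. EPCAM, with 116, 140 and 140 recovered reads in that order, had a negative log2 difference in OV90CisR2 against OV90 (-0.32) and did not pass. Of 12 markers of fibroblasts and endothelium, 7 passed the filter. The summed normalised reads of the 12 lay between 4397 and 5734 in OV90CisR2, 7241 and 12054 in OV90CisR1 and 3978 and 5297 in OV90, and the endothelial genes PECAM1, VWF and KDR had 0 reads throughout. Most of that sum was the collagen gene COL3A1, which rose in OV90CisR1 against OV90 (1.43, adjusted p = 0.0053) and fell in OV90CisR2 against OV90CisR1 (-1.31, adjusted p = 0.0094). The matrix proteoglycan genes LUM and DCN rose in OV90CisR2 against OV90, by 3.36 and 2.51 on the log2 scale (adjusted p = 0.0047 and 0.00032), and against OV90CisR1, by 2.75 and 1.43 (adjusted p = 0.009 and 0.0083), and DCN also rose in OV90CisR1 against OV90 (1.08, adjusted p = 0.022). LUM had 1391 recovered reads in OV90CisR2, 225 in OV90CisR1 and 131 in OV90. THY1 had 3030, 3656 and 3376 in that order and did not pass in any comparison. Of the 7 tested, 2 had a negative log2 difference against OV90 in each resistant line, and 3 in OV90CisR2 against OV90CisR1. Of 10 leukocyte markers 9 were under the filter and 4 had 0 reads in all libraries, and the 10 together had 33.2 to 45.0 normalised reads in OV90CisR2, 71.9 to 136 in OV90CisR1 and 24.3 to 69.9 in OV90. The 1 tested leukocyte marker, CD68, fell in OV90CisR2 against OV90CisR1 (-1.42, adjusted p = 0.036). The part of these markers in the results below was not tested.

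OV90CisR2 carried more S-phase and mitotic messenger RNA than OV90CisR1, and this was the only one of the 3 comparisons in which any of the 47 genes passed the test with all libraries. RRM2, RRM1 and CDC6 of the S-phase genes and UBE2C and NUSAP1 of the mitotic genes rose in OV90CisR2 against OV90CisR1, and none fell (limma, Benjamini-Hochberg adjusted p under 0.05 over all genes tested). That is 5 of 47, in a comparison in which 10.1% of all genes tested passed, 5.16% as higher and 4.9% as lower. The direction was shared more widely than the calls. The log2 difference was positive for 41 of the 47 genes, against 52.4% of all genes tested, and its median was 0.35 over the S-phase genes and 0.38 over the mitotic genes, against 0.03 over all genes tested. For 28 of the 47 every OV90CisR2 library lay above every OV90CisR1 library, and for 0 every one lay below, against 19.4% and 18.2% of all genes tested. S-phase and mitotic genes thus gave like medians, and the difference between these medians was not tested.

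Against OV90 none of the 47 genes passed the test in either resistant line. For OV90CisR2 against OV90, 12 genes had an unadjusted p under 0.05, edgeR called 0 and DESeq2 called 1 (MCM3), while 3.29% of all genes tested passed in limma, 2.35% as higher and 0.941% as lower. The log2 difference was positive for 42 of 47 genes, against 50.4% of all genes, with a median of 0.38 over the S-phase genes and 0.33 over the mitotic genes and 0.0038 over all genes tested. For 12 genes all OV90CisR2 libraries lay above all OV90 libraries and for 2 (CKS2 and BUB1) all lay below, against 13.6% and 13.5% of all genes tested. Of those 12, 9 were S-phase genes. For OV90CisR1 against OV90, 7 genes had an unadjusted p under 0.05 and edgeR and DESeq2 each called 0, while 15.8% of all genes tested passed in limma, 8.54% as higher and 7.29% as lower. The log2 difference was positive for 18 and negative for 29 of the 47, with a median of -0.03 over the S-phase genes, -0.16 over the mitotic genes and -0.0094 over all genes. Without OV90 replicate 3 these medians turned positive, at 0.11 over the S-phase and 0.07 over the mitotic genes. The 3 comparisons share libraries, so their values for a gene are not independent of each other.

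**Figure D1:**
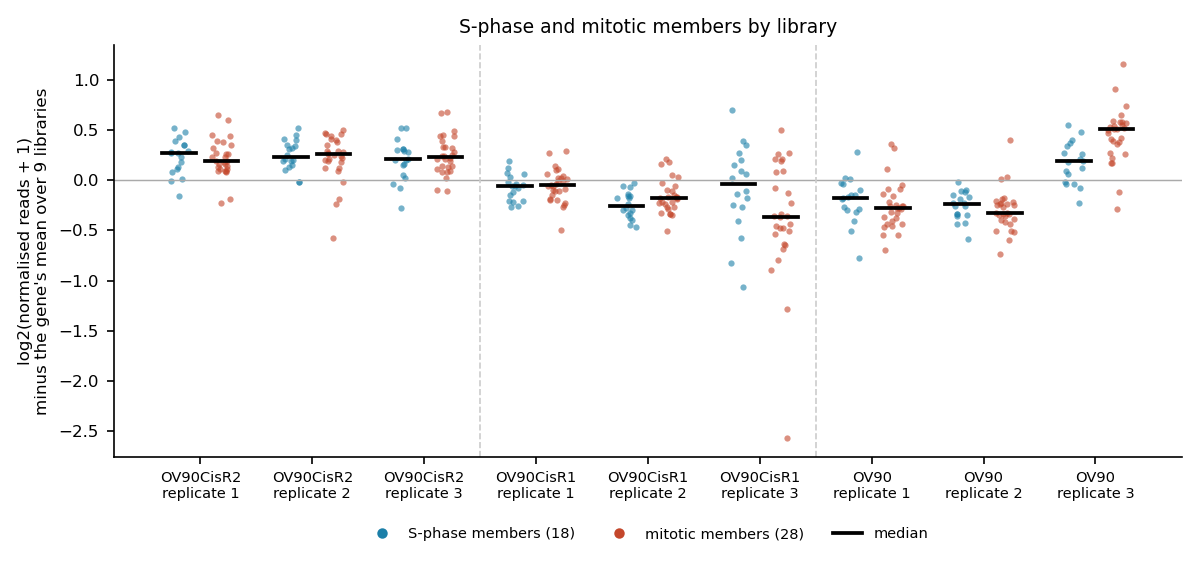
Level of each cell cycle gene in each of the 9 libraries, as log2(normalised reads + 1) minus the gene's mean over the libraries; each point is a gene, blue for the 18 S-phase and red for the 28 mitotic genes, and black bars are medians. The medians of the OV90CisR2 libraries lie between 0.19 and 0.27, and the mitotic median of OV90 replicate 3 is 0.51, against -0.28 and -0.33 in the other OV90 libraries.

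Library by library, the median S-phase gene stood at 0.27, 0.23 and 0.21 log2 units above its own mean over the 9 libraries in OV90CisR2 replicates 1, 2 and 3, at -0.06, -0.26 and -0.04 in OV90CisR1 and at -0.18, -0.24 and 0.19 in OV90. The median mitotic gene stood at 0.19, 0.26 and 0.23 in OV90CisR2, at -0.05, -0.18 and -0.37 in OV90CisR1 and at -0.28, -0.33 and 0.51 in OV90. OV90CisR2 therefore lay above OV90CisR1 in every library for both classes, while OV90 was split, with replicates 1 and 2 low and replicate 3 high. Summed over the 18 S-phase genes, normalised reads came to 15596, 15776 and 15673 in OV90CisR2, 12231, 11133 and 11952 in OV90CisR1 and 11464, 10716 and 15049 in OV90. Summed over the 28 mitotic genes they came to 42706, 47187 and 43258 in OV90CisR2, 35018, 33014 and 37617 in OV90CisR1 and 28680, 29291 and 48268 in OV90. The S-phase sum was thus higher in each OV90CisR2 library than in any other library, and the mitotic sum was highest in OV90 replicate 3. The sums are decided mostly by the most abundant genes, TOP2A above all among the mitotic genes. OV90CisR1 replicate 3 had the highest mitotic sum of its line (37617) and the lowest mitotic median (-0.37).

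**Figure D2:**
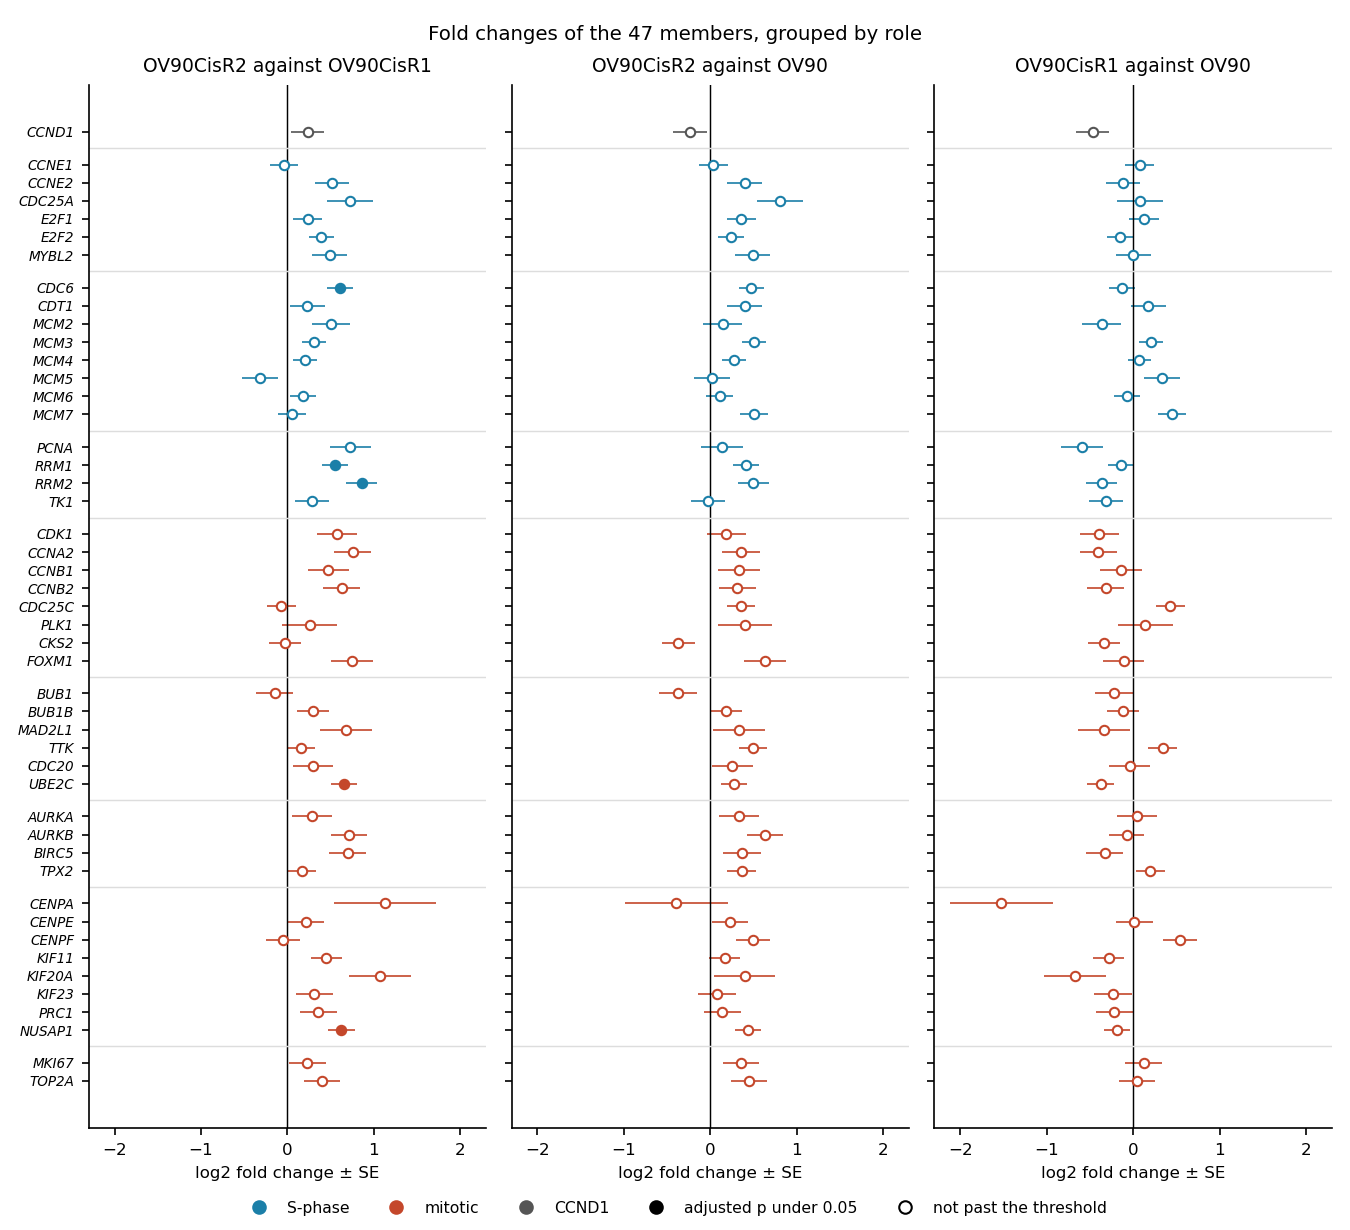
Log2 fold change of each cell cycle gene with its standard error (n = 3 libraries a group), in rows by role, for OV90CisR2 against OV90CisR1, OV90CisR2 against OV90 and OV90CisR1 against OV90; blue marks S-phase genes, red mitotic genes and grey CCND1, and filled circles passed the test. The 5 filled circles are CDC6, RRM1, RRM2, UBE2C and NUSAP1, all in OV90CisR2 against OV90CisR1.

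The S-phase and mitotic genes are known to be read from promoters of different make-up. E2F factors bind sites such as TTTNNCGC, mainly at S-phase genes. MuvB complexes bind the cell cycle genes homology region (CHR), searched here as TTTGAA or TTCGAA, mainly at mitotic genes, often beside CCAAT boxes, which bind NF-Y. RefSeq promoter windows of 300 bases (250 before to 50 after the start, GRCh38.p14), searched on both strands, were at hand for 37 of the 47 genes. A CHR was found in 19 of 27 windows of mitotic genes (70.4%), in 2 of 20 windows of S-phase genes (10%) and in 16.4% of 35116 windows of all genes. A CHR together with a CCAAT box was found in 66.7% of windows of mitotic genes, 10% of S-phase genes and 6.38% of all. The E2F letters were found in 10 of 20 S-phase windows (50%), 14.8% of mitotic windows and 6.89% of all, and a CCAAT box in 70.0% of S-phase windows, 85.2% of mitotic windows and 34.6% of all. The shares describe letters in these windows, and their part in the measured differences was not tested.

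**Figure D3:**
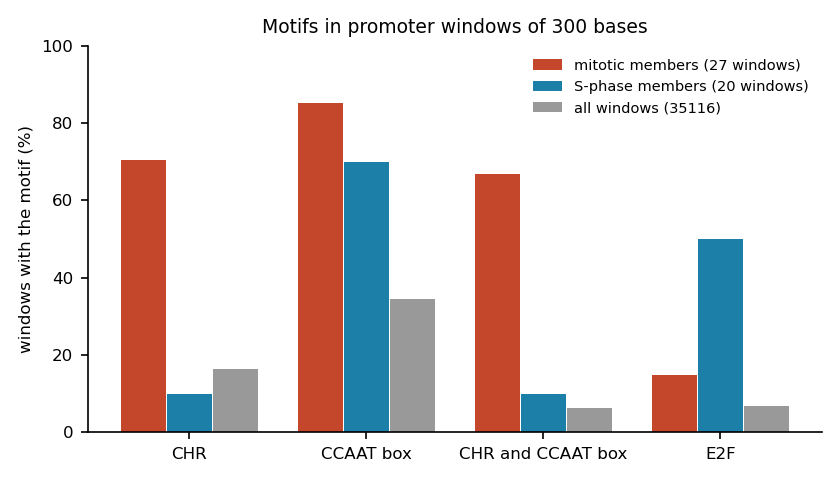
Share of RefSeq promoter windows of 300 bases that hold each motif on either strand, in percent, for mitotic genes (27 windows), S-phase genes (20 windows) and all genes (35116 windows). The CHR bars stand at 70.4%, 10% and 16.4%, and the E2F bars at 14.8%, 50% and 6.89%.

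The windows below run from 150 bases before to 25 after the start and are read 5′ to 3′ on the gene's strand. They are shown for the genes that rose in OV90CisR2 against OV90CisR1 and have an entry in the promoter table, for MCM3, the only one of the 47 that DESeq2 called in OV90CisR2 against OV90, and for CCNB2 and PLK1 as mitotic genes with the CHR and CCAAT arrangement. Capitals mark CCAAT boxes (CCAAT or, on the other strand, ATTGG), CHR letters and E2F letters, and no marked motifs overlap.
RRM2, chr2:10122589-10122763, plus strand: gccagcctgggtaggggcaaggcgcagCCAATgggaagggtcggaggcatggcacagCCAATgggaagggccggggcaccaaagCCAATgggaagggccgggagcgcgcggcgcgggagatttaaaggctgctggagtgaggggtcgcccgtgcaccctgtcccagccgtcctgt
RRM1, chr11:4094535-4094709, plus strand: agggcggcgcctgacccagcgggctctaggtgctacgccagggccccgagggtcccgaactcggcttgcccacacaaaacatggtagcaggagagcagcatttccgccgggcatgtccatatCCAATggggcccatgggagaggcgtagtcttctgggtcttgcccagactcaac
CDC6, chr17:40287729-40287903, plus strand: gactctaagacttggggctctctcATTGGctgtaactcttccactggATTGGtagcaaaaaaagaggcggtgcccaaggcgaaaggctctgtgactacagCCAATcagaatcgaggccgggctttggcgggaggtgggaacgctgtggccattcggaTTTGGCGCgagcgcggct
MCM3, chr6:52284718-52284892, minus strand: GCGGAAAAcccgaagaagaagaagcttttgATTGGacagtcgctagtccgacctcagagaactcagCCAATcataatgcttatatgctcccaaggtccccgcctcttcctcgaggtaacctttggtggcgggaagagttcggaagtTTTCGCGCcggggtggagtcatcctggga
NUSAP1, chr15:41332731-41332905, plus strand: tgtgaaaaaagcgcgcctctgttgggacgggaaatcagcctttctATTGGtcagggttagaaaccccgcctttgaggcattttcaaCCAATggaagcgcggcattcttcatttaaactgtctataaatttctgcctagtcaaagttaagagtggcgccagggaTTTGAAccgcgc
CCNB2, chr15:59104996-59105170, plus strand: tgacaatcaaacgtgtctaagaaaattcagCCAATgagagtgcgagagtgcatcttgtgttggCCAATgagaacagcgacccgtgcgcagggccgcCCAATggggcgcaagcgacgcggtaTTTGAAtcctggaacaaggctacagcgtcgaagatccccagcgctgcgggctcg
PLK1, chr16:23678739-23678913, plus strand: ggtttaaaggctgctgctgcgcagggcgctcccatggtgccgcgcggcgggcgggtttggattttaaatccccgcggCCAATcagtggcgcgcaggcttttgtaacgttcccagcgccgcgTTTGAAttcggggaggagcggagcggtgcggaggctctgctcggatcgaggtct
The printed RRM2 window holds CCAAT boxes at positions -123, -93 and -66 from the start and neither of the other motifs. CDC6 holds E2F letters at position 8 after the start, and MCM3 at -150 and -4. CCNB2 and PLK1 both hold the CHR at -29, with CCAAT boxes upstream, and NUSAP1 holds it at position 14. RRM2 has another RefSeq window, which starts upstream of the printed one and is not shown.

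Among the genes that drive cells from G1 into S phase, CDC25A had the largest log2 difference between OV90CisR2 and each of the other lines, yet none of the 6 passed the test in any comparison. CDC25A (chr3:48157146-48188417), the phosphatase that activates CDK2, had 335, 345 and 344 in OV90CisR2, 206, 212 and 201 in OV90CisR1 and 139.9, 159 and 334 in OV90 (normalised reads, replicates 1, 2 and 3 in that order here and below). OV90CisR2 lay above both other lines in every library, but OV90 replicate 3 lay just under the lowest OV90CisR2 library. The log2 difference was 0.72 ± 0.26 (SE) for OV90CisR2 against OV90CisR1 (limma, adjusted p = 0.1) and 0.80 ± 0.26 for OV90CisR2 against OV90 (adjusted p = 0.13). MYBL2 (B-Myb), which carries the cycle from the S-phase to the mitotic programme, had 851, 939 and 872 in OV90CisR2, 614, 543 and 755 in OV90CisR1 and 532, 527 and 899 in OV90. All OV90CisR2 libraries lay above those of OV90CisR1, and 1 OV90 library overlapped them, with log2 differences of 0.49 (adjusted p = 0.14) and 0.49 (adjusted p = 0.24).

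E2F1, the activating E2F factor, had 509.7, 535 and 448 in OV90CisR2, 409, 352 and 521 in OV90CisR1 and 355, 363 and 451 in OV90, and its groups overlapped in each comparison. E2F2, a close relative, had 351, 331 and 324 in OV90CisR2, 239.7, 235 and 294 in OV90CisR1 and 285, 254 and 316 in OV90, so that every OV90CisR2 library lay above those of both other lines, with a log2 difference of 0.39 against OV90CisR1 (adjusted p = 0.11) and 0.24 against OV90 (adjusted p = 0.44). The E-type cyclins, partners of CDK2 at the start of S phase, differed from each other. CCNE2 had 101 to 127 normalised reads in OV90CisR2, 63.6 to 84.7 in OV90CisR1 and 74.0 to 89.5 in OV90, with no overlap between OV90CisR2 and the others (adjusted p = 0.12 against OV90CisR1 and 0.33 against OV90). CCNE1 had overlapping groups and log2 differences of -0.04 for OV90CisR2 against OV90CisR1 and 0.03 for OV90CisR2 against OV90. Of the 6 drivers, 4 had all OV90CisR2 libraries above all OV90CisR1 libraries, against 19.4% of all genes tested.

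Origin licensing loads the MCM helicase, a ring of MCM2 to MCM7, onto DNA with the help of CDC6 and CDT1. CDC6 (chr17:40287879-40304657), the loading ATPase whose promoter is printed above, was the only one of these 8 genes that passed the test. It had 638, 600.1 and 589 in OV90CisR2, 410.1, 371 and 419 in OV90CisR1 and 385, 405 and 537 in OV90. OV90CisR2 averaged 609 ± 25.3 and OV90CisR1 400.1 ± 25.5 (mean ± SD, n = 3 each), and the lowest OV90CisR2 library lay above the highest of either other line. CDC6 rose by a log2 difference of 0.61 ± 0.15 against OV90CisR1 (adjusted p = 0.027), and the difference against OV90 was 0.48 ± 0.15 (adjusted p = 0.12).

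MCM3 had 1744, 1728 and 1772 in OV90CisR2, 1304, 1300.2 and 1669.7 in OV90CisR1 and 1162, 1134 and 1407 in OV90, above both other lines in every OV90CisR2 library. Its log2 difference was 0.51 ± 0.14 for OV90CisR2 against OV90 (adjusted p = 0.074), the lowest adjusted p of the 47 genes in that comparison, and 0.31 ± 0.14 against OV90CisR1 (adjusted p = 0.17). MCM7 had 1197, 1219 and 1171 in OV90CisR2, 1098, 1012 and 1384 in OV90CisR1 and 742, 778 and 1042 in OV90. Both resistant lines had high values of MCM7, with OV90 replicate 3 inside the range of OV90CisR1, and log2 differences of 0.50 ± 0.16 for OV90CisR2 against OV90 (adjusted p = 0.12) and 0.45 ± 0.16 for OV90CisR1 against OV90 (adjusted p = 0.076). MCM2 had 1344, 1037 and 1307 in OV90CisR2, 1037, 1031 and 592 in OV90CisR1 and 1023, 977 and 1355 in OV90. OV90CisR1 replicate 3 was the lowest library for MCM2 and the highest for MCM5 and MCM7, so subunits of the same helicase did not move together in that library. MCM5 was the only licensing gene with a negative log2 difference in OV90CisR2 against OV90CisR1, -0.32 ± 0.21 (adjusted p = 0.34), and CDT1, MCM4 and MCM6 had differences between 0.18 and 0.23 there.

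Of the 5 genes that rose among the 47, RRM2, a gene of nucleotide supply, had the largest difference. RRM2 (chr2:10122568-10211010) encodes the small subunit that sets the activity of ribonucleotide reductase during S phase, and had 2765, 2884 and 3023 in OV90CisR2, 1767, 1609 and 1417 in OV90CisR1 and 1855, 1659 and 2790.1 in OV90. All OV90CisR2 libraries lay above all OV90CisR1 libraries, while OV90 replicate 3 reached into the range of OV90CisR2. RRM2 rose by 0.86 ± 0.18 on the log2 scale in OV90CisR2 against OV90CisR1 (adjusted p = 0.014). Against OV90 the log2 difference was 0.50 ± 0.18 in OV90CisR2 (adjusted p = 0.17) and -0.36 ± 0.18 in OV90CisR1 (adjusted p = 0.18).

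RRM1 (chr11:4094685-4138932), the large subunit of the same enzyme, had 2079, 2252 and 2062 in OV90CisR2, 1574, 1506 and 1284 in OV90CisR1 and 1534, 1352 and 1969 in OV90. Each OV90CisR2 library lay above every library of the other lines, and RRM1 rose by 0.55 ± 0.15 against OV90CisR1 (adjusted p = 0.04), with 0.41 ± 0.15 against OV90 (adjusted p = 0.17). PCNA, the sliding clamp of the replication fork, had 1005, 841 and 1044 in OV90CisR2, 826, 627 and 375 in OV90CisR1 and 958, 775 and 899 in OV90. OV90CisR1 replicate 3 was far below the rest, and PCNA did not pass in OV90CisR2 against OV90CisR1 (0.73 ± 0.24, adjusted p = 0.076) or in OV90CisR1 against OV90 (-0.59 ± 0.24, adjusted p = 0.11). TK1, which salvages thymidine, had overlapping groups in each comparison and a log2 difference of 0.29 for OV90CisR2 against OV90CisR1. All 4 genes of this role had a positive difference in OV90CisR2 against OV90CisR1 and a negative one in OV90CisR1 against OV90, while 0 of them passed in the second.

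**Figure D4:**
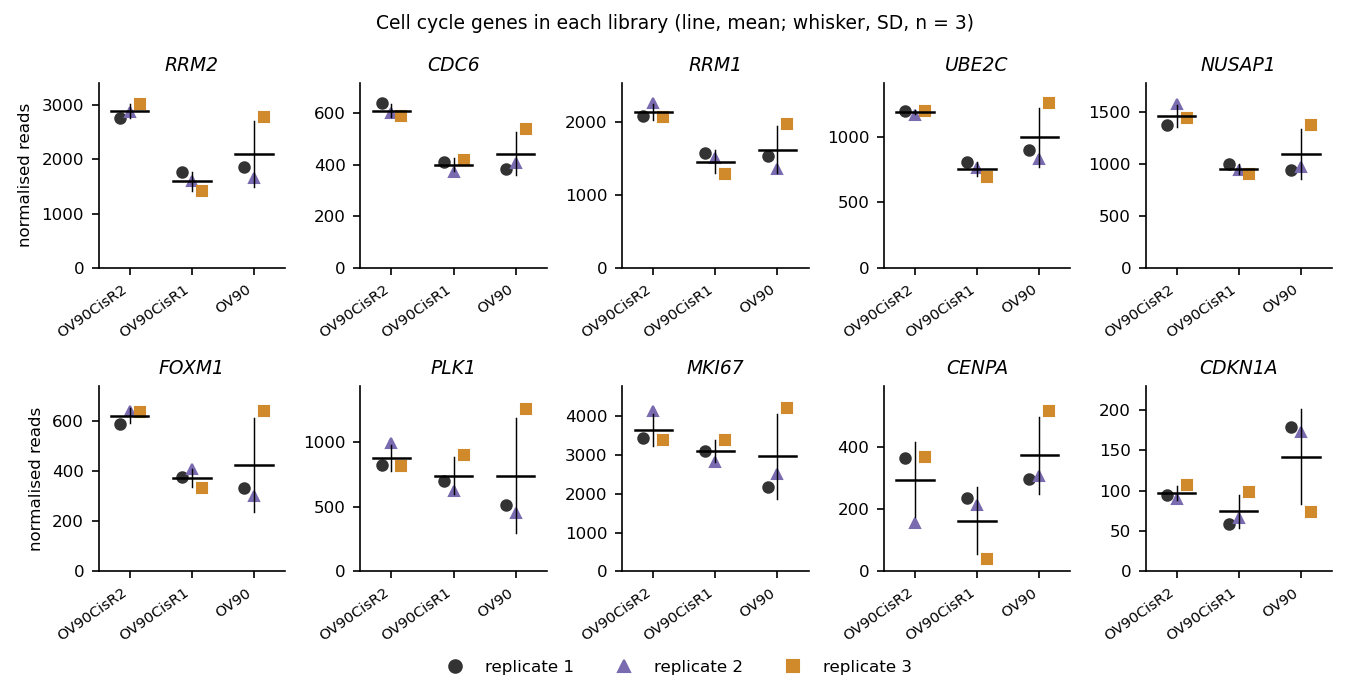
Normalised reads of the 5 genes that rose in OV90CisR2 against OV90CisR1 (top row) and of FOXM1, PLK1, MKI67, CENPA and CDKN1A (bottom row), with OV90CisR2 on the left, OV90CisR1 in the middle and OV90 on the right; symbols are replicates, the bar is the mean and the whisker the SD of 3 libraries. OV90 replicate 3 (square) is the highest OV90 library for the first 9 genes and the lowest for CDKN1A.

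The genes of mitotic entry had 8 members, of which 0 passed in any comparison. For 5 of the 8 all OV90CisR2 libraries lay above all OV90CisR1 libraries, against 19.4% of all genes tested. CDK1, the kinase that starts mitosis, had 1039, 1007 and 1050.4 in OV90CisR2, 874, 766 and 498 in OV90CisR1 and 813, 743 and 1243 in OV90. OV90CisR2 lay above OV90CisR1 and inside the range of OV90, with a log2 difference of 0.57 ± 0.23 against OV90CisR1 (adjusted p = 0.12). CCNA2, the cyclin of S phase and G2, had 464, 426 and 486 in OV90CisR2, 309.9, 281 and 228 in OV90CisR1 and 317, 279 and 519.9 in OV90, and came nearest to the threshold of the mitotic entry genes with 0.75 ± 0.22 in OV90CisR2 against OV90CisR1 (adjusted p = 0.0501). FOXM1, the factor that drives the mitotic programme, had 589, 641 and 638 in OV90CisR2, 376, 407 and 334 in OV90CisR1 and 333, 299.8 and 642 in OV90. Here OV90 split into 2 low libraries and 1, replicate 3, at the level of OV90CisR2, and the log2 difference was 0.74 ± 0.24 against OV90CisR1 (adjusted p = 0.072) and 0.64 ± 0.24 against OV90 (adjusted p = 0.19).

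CDC25C, the phosphatase that activates CDK1, had 256, 237 and 278 in OV90CisR2, 231, 249 and 340.5 in OV90CisR1 and 202, 202 and 197 in OV90, and was the only mitotic gene for which OV90 replicate 3 was the lowest OV90 library. Both resistant lines lay above OV90 in every library, with log2 differences of 0.35 ± 0.17 for OV90CisR2 (adjusted p = 0.3) and 0.43 ± 0.17 for OV90CisR1 (adjusted p = 0.1). The cyclin B genes CCNB1 and CCNB2 gave 0.47 and 0.63 in OV90CisR2 against OV90CisR1 (adjusted p = 0.22 and 0.084), without overlap. PLK1, a kinase of mitotic entry and spindle assembly, ranged from 816 to 998 normalised reads in OV90CisR2, 626 to 902 in OV90CisR1 and 454 to 1257 in OV90, so that its groups overlapped. CKS2, a small subunit bound to the kinases, was lower in every OV90CisR2 library than in any OV90 library, with a log2 difference of -0.37 ± 0.19 (adjusted p = 0.34).

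Of the 6 genes of the spindle checkpoint and of the anaphase-promoting complex (APC/C), 1 passed. UBE2C (chr20:45812644-45816952), the ubiquitin-conjugating enzyme that works with the APC/C, had 1196, 1171 and 1198 in OV90CisR2, 808, 766 and 698 in OV90CisR1 and 905, 833 and 1257 in OV90. It averaged 1189 ± 15.1 in OV90CisR2 and 757 ± 55.5 in OV90CisR1 (mean ± SD, n = 3 each), with OV90 replicate 3 above both. UBE2C rose by 0.65 ± 0.15 on the log2 scale in OV90CisR2 against OV90CisR1 (adjusted p = 0.024). In OV90CisR1 against OV90 all of its libraries lay below those of OV90, with -0.38 ± 0.15 (adjusted p = 0.11).

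TTK (MPS1), the kinase that starts checkpoint signalling, had 247, 309 and 256 in OV90CisR2, 279.9, 237 and 212 in OV90CisR1 and 184, 176 and 213 in OV90. OV90CisR2 lay above OV90 in every library, with log2 differences of 0.50 ± 0.16 for OV90CisR2 (adjusted p = 0.13) and 0.34 ± 0.16 for OV90CisR1 (adjusted p = 0.17). MAD2L1, the checkpoint protein that blocks CDC20, had 370.5, 295 and 367 in OV90CisR2, 283, 239.7 and 145 in OV90CisR1 and 246, 189.8 and 425 in OV90, without overlap between OV90CisR2 and OV90CisR1 (0.67 ± 0.30, adjusted p = 0.17). CDC20 and BUB1B had differences of 0.30 each in that comparison, also without overlap. BUB1, a kinetochore kinase, was the exception: its log2 difference was -0.15 in OV90CisR2 against OV90CisR1 and -0.37 against OV90, where all OV90CisR2 libraries lay below those of OV90 (adjusted p = 0.41). OV90CisR1 replicate 3 was the lowest and replicate 1 the highest library of its group for all 6 genes.

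None of the Aurora kinases and their partners passed the test. AURKB, the kinase of the chromosomal passenger complex, had 1391, 1408 and 1394 in OV90CisR2, 726, 720.1 and 1187 in OV90CisR1 and 823, 767 and 1155 in OV90. OV90CisR2 lay above both other lines in every library, and AURKB just missed the threshold against OV90CisR1 with 0.71 ± 0.21 (adjusted p = 0.0515), while the difference against OV90 was 0.63 ± 0.21 (adjusted p = 0.13). BIRC5 (survivin), of the same complex, had 1522, 1739.9 and 1593 in OV90CisR2, 1175, 1073 and 787 in OV90CisR1 and 1091, 1003 and 1803 in OV90, with 0.70 ± 0.22 against OV90CisR1 (adjusted p = 0.066). In OV90CisR1 replicate 3 AURKB was the highest and BIRC5 the lowest of its group, although their products share a complex. TPX2, which activates Aurora A on the spindle, had 2186, 2223 and 2120.2 in OV90CisR2, 1851, 1798 and 2193 in OV90CisR1 and 1401, 1536 and 2251 in OV90, and all 3 lines overlapped. AURKA (Aurora A) gave 0.29 in OV90CisR2 against OV90CisR1, without overlap (adjusted p = 0.44).

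Of the 8 genes of the centromere, the mitotic kinesins and the spindle midzone, 1 passed. NUSAP1 (chr15:41332881-41381046), which bundles microtubules around chromosomes, had 1367, 1577 and 1437 in OV90CisR2, 998, 936 and 905 in OV90CisR1 and 939.9, 968 and 1369.8 in OV90. OV90 replicate 3 fell within the range of OV90CisR2, and every OV90CisR1 library lay below every OV90CisR2 library. NUSAP1 rose by 0.62 ± 0.15 in OV90CisR2 against OV90CisR1 (adjusted p = 0.027), and its difference against OV90 was 0.44 ± 0.15 (adjusted p = 0.16). CENPF, a large kinetochore protein, had 4782, 5508 and 4796 in OV90CisR2, 4986, 5114 and 5474 in OV90CisR1 and 2789, 3154 and 5103 in OV90. Here the resistant lines overlapped each other and OV90 replicates 1 and 2 were low, with log2 differences of 0.50 ± 0.20 for OV90CisR2 against OV90 (adjusted p = 0.21) and 0.55 ± 0.20 for OV90CisR1 against OV90 (adjusted p = 0.078).

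CENPA, the histone H3 variant of the centromere, had 363, 155 and 368 in OV90CisR2, 236, 214 and 38.2 in OV90CisR1 and 298, 306 and 517 in OV90. It had the largest standard error of the 47 genes, with OV90CisR1 replicate 3 and OV90CisR2 replicate 2 lowest in their groups, and its log2 difference of -1.52 ± 0.59 for OV90CisR1 against OV90, without overlap, did not pass (adjusted p = 0.1). KIF20A, a kinesin of the midzone and the cleavage furrow, had 419.6, 317 and 443 in OV90CisR2, 242, 230.1 and 113 in OV90CisR1 and 214, 231 and 522 in OV90, with the same 2 libraries lowest and 1.07 ± 0.36 for OV90CisR2 against OV90CisR1 (adjusted p = 0.079). KIF11, the motor that separates the spindle poles, and PRC1, which bundles midzone microtubules, did not overlap between OV90CisR2 and OV90CisR1 (0.45 and 0.36, adjusted p = 0.13 and 0.31). KIF23, of the same midzone, and CENPE, the kinesin that brings chromosomes to the spindle equator, gave 0.31 and 0.21.

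MKI67 and TOP2A, both used as proliferation markers, did not separate the lines with all libraries. MKI67 (Ki-67), which coats mitotic chromosomes, had 3439.7, 4132 and 3391 in OV90CisR2, 3098, 2829 and 3396 in OV90CisR1 and 2181, 2502 and 4225 in OV90. TOP2A, which untangles replicated DNA, had 13903, 16533 and 14079 in OV90CisR2, 10378, 9606 and 14129 in OV90CisR1 and 9186, 9470.5 and 14715 in OV90. For both genes the groups overlapped in all 3 comparisons, with OV90 replicate 3 at 4225 normalised reads of MKI67, above every other library, and OV90CisR1 replicate 3 the highest library of its line. MKI67 had log2 differences of 0.35, 0.12 and 0.23 for OV90CisR2 against OV90, OV90CisR1 against OV90 and OV90CisR2 against OV90CisR1 (adjusted p = 0.43, 0.72 and 0.51). Without OV90 replicate 3 and OV90CisR1 replicate 3 these were 0.64, 0.34 and 0.30 (limma, adjusted p = 0.00031, 0.03 and 0.038). TOP2A then had 0.67, 0.098 and 0.57 (adjusted p = 0.00012, 0.5 and 0.00036). Of all genes tested 25.5%, 27.4% and 26.3% were called there.

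CCND1 (cyclin D1), which links growth factor signals to CDK4 and CDK6, had 972, 1209.8 and 1027 in OV90CisR2, 934, 944 and 844 in OV90CisR1 and 1048, 1059 and 1777 in OV90. All OV90CisR1 libraries lay below all OV90 libraries, with a log2 difference of -0.47 ± 0.19 (adjusted p = 0.12), and OV90CisR2 overlapped OV90 (-0.24 ± 0.19, adjusted p = 0.58). OV90 replicate 3 was again the highest OV90 library. Of 9 other G1 cyclins and kinases, CDK2, the partner of cyclins E and A, rose in OV90CisR2 against OV90CisR1 by 0.58 ± 0.13 (adjusted p = 0.021), and 0 passed in the other comparisons. Of all genes tested 10.1% passed in OV90CisR2 against OV90CisR1, 3.29% in OV90CisR2 against OV90 and 15.8% in OV90CisR1 against OV90.

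Among 8 inhibitors of the cyclin-dependent kinases, members of the INK4 family passed the test, in both directions. In OV90CisR1 against OV90 1 rose and 1 fell, and 1 rose in each of the other comparisons. Of all genes tested 15.8% passed in OV90CisR1 against OV90, 3.29% in OV90CisR2 against OV90 and 10.1% in OV90CisR2 against OV90CisR1. CDKN2C (p18), which binds CDK4 and CDK6, had 206, 175 and 201 in OV90CisR2, 178, 167 and 174 in OV90CisR1 and 101, 103 and 86.3 in OV90. It rose in both resistant lines against OV90, by 0.997 ± 0.16 in OV90CisR2 (adjusted p = 0.0052) and by 0.83 ± 0.16 in OV90CisR1 (adjusted p = 0.0071), with no overlap. CDKN2B (p15), of the same family, had 39.9, 30.6 and 24.6 in OV90CisR2, 20.7, 19.1 and 16.9 in OV90CisR1 and 69.9, 76.9 and 41.4 in OV90. It fell in OV90CisR1 against OV90 (-1.64 ± 0.30, adjusted p = 0.0068), and its groups did not overlap in OV90CisR2 against OV90 (-0.94 ± 0.30, adjusted p = 0.13). CDKN2D (p19) had 121, 105 and 169.8 in OV90CisR2, 67.1, 62.6 and 23.6 in OV90CisR1 and 95.6, 81.8 and 135 in OV90 and rose in OV90CisR2 against OV90CisR1 (1.46 ± 0.37, adjusted p = 0.032).

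CDKN1A (p21), an inhibitor of the cyclin-dependent kinases that is switched on after DNA damage, had 94.2, 90.1 and 106 in OV90CisR2, 58.9, 65.8 and 97.8 in OV90CisR1 and 179, 173 and 73.8 in OV90. OV90 replicate 3, high for the mitotic genes, was low for CDKN1A, and the groups overlapped (log2 difference -0.44 ± 0.33 for OV90CisR2 and -0.86 ± 0.33 for OV90CisR1 against OV90, adjusted p = 0.52 and 0.093). CDKN1B (p27) gave 0.25 in OV90CisR2 against OV90 and passed in no comparison. Of 16 genes of the RB, E2F and DREAM group, E2F7, a repressive E2F factor, had 154, 117 and 142 in OV90CisR2, 105, 72.1 and 58.4 in OV90CisR1 and 145, 126 and 166 in OV90. It fell in OV90CisR1 against OV90 (-0.91 ± 0.23, adjusted p = 0.025) and rose in OV90CisR2 against OV90CisR1 (0.83 ± 0.23, adjusted p = 0.0451). No other gene of the 16 passed in any comparison. Of all genes tested 15.8% passed in OV90CisR1 against OV90, 10.1% in OV90CisR2 against OV90CisR1 and 3.29% in OV90CisR2 against OV90. RB1 had 324, 229 and 362 in OV90CisR2, 256, 312 and 112 in OV90CisR1 and 335, 346 and 252 in OV90, with overlapping groups.

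Further genes of the same processes were described as lists. Of 46 other S-phase genes, 4 rose and 0 fell in OV90CisR2 against OV90CisR1, where 5.16% of all genes tested passed as higher, with a median log2 difference of 0.38. Without OV90 replicate 3 the number was 10, with 16.3% of all genes called. The 4 that rose with all libraries included CHAF1B, a chaperone of newly made histones (0.84 ± 0.16, adjusted p = 0.0098), and TYMS, which makes thymidylate (0.75 ± 0.19, adjusted p = 0.031). Against OV90, 4 rose and 0 fell in OV90CisR2, where 2.35% of all genes passed as higher, among them RFC3, of the clamp loader, and CASP8AP2 (0.76 and 0.64, adjusted p = 0.016 and 0.018), with a median of 0.21. In OV90CisR1 against OV90, 1 rose (RFC3, 0.65, adjusted p = 0.015) and 4 fell, among them PRIM1, of the primase, and TYMS (-0.90 and -0.81, adjusted p = 0.027 and 0.018), with a median of -0.23, where 8.54% of all genes passed as higher and 7.29% as lower. Without OV90 replicate 3, 6 of the 46 rose and 1 fell there, with a median of -0.03. TYMS had 1800.2, 1638 and 2126 in OV90CisR2, 1284, 1161 and 889 in OV90CisR1 and 1865, 1567 and 2442 in OV90, so OV90CisR2 was at the level of OV90 and OV90CisR1 below both.

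Of 50 other G2 and mitosis genes, 9 rose and 0 fell in OV90CisR2 against OV90CisR1, with a median of 0.49, and for 35 of 50 every OV90CisR2 library lay above every OV90CisR1 library. Of all genes tested 5.16% passed as higher and 19.4% lay above without overlap. Without OV90 replicate 3, 21 of the 50 rose and 0 fell, with 16.3% of all genes called. CKS1B, which binds the cyclin-dependent kinases, had 1738, 1902 and 1788 in OV90CisR2, 965, 987 and 1138 in OV90CisR1 and 1649, 1471 and 1693 in OV90. With all libraries it rose by 0.81 ± 0.12 in OV90CisR2 against OV90CisR1 (adjusted p = 0.0024). NDC80, which ties kinetochores to microtubules, had 649.9, 698 and 639 in OV90CisR2, 369, 385 and 425 in OV90CisR1 and 562, 578 and 812 in OV90, and rose by 0.75 ± 0.16 (adjusted p = 0.013). Both fell in OV90CisR1 against OV90 (-0.64 and -0.71, adjusted p = 0.0068 and 0.014), where 2 genes of this list rose and 3 fell with a median of -0.22, and 15.8% of all genes passed in either direction. Without OV90 replicate 3, 7 rose and 2 fell in that comparison, with a median of -0.013. The 2 that rose in OV90CisR1 against OV90 with all libraries were LBR, a protein of the inner nuclear membrane, and TROAP (1.05 and 0.49, adjusted p = 0.0085 and 0.0498). In OV90CisR2 against OV90 only TROAP rose (0.68, adjusted p = 0.035), with a median of 0.26. Of 17 tested genes of the APC/C and SCF ubiquitin ligases, SKP1 fell in OV90CisR1 against OV90 (-0.42 ± 0.13, adjusted p = 0.0481) and 0 passed in the other comparisons. Of all genes tested 15.8% passed in OV90CisR1 against OV90, 3.29% in OV90CisR2 against OV90 and 10.1% in OV90CisR2 against OV90CisR1.

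OV90 replicate 3 was the highest OV90 library for 27 of the 28 mitotic genes, for 15 of the 18 S-phase genes and for CCND1, against 41.1% of all genes tested. The median gene stood 0.78 (mitotic) and 0.44 (S-phase) log2 units above the mean of the other 2 OV90 libraries, against 0.0039 over all genes. It was also the highest OV90 library for 41 of 46 other S-phase genes and 48 of 50 other G2 and mitosis genes. Without this library more genes passed. In OV90CisR2 against OV90, 22 of the 47 genes rose and 0 fell, with 9.22% of all genes called, and the medians were 0.40 over the S-phase and 0.58 over the mitotic genes. The 22 were 7 S-phase genes (CDC25A, MYBL2, CDC6, MCM3, MCM7, RRM1 and RRM2) and 15 mitotic genes (CCNA2, CCNB1, PLK1, FOXM1, CDC20, UBE2C, AURKA, AURKB, BIRC5, TPX2, CENPE, CENPF, NUSAP1, MKI67 and TOP2A). CDC25A then had a log2 difference of 1.19 (adjusted p = 0.001), FOXM1 0.98 (adjusted p = 0.0028), PLK1 0.86 (adjusted p = 0.015) and MKI67 0.64 (adjusted p = 0.017). For all 22, OV90 replicate 3 lay above the mean of the other 2 OV90 libraries. Leaving it out could therefore only raise their differences in OV90CisR2 against OV90. Of the other S-phase genes 9 rose and 0 fell in that comparison, and of the other G2 and mitosis genes 14 rose and 0 fell. In OV90CisR1 against OV90, CDC25A, CENPF, MCM7, PLK1 and TPX2 rose, with 17.3% of all genes called. Without OV90 replicate 1 or without OV90 replicate 2, 0 genes passed in either comparison with OV90.

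**Figure D5:**
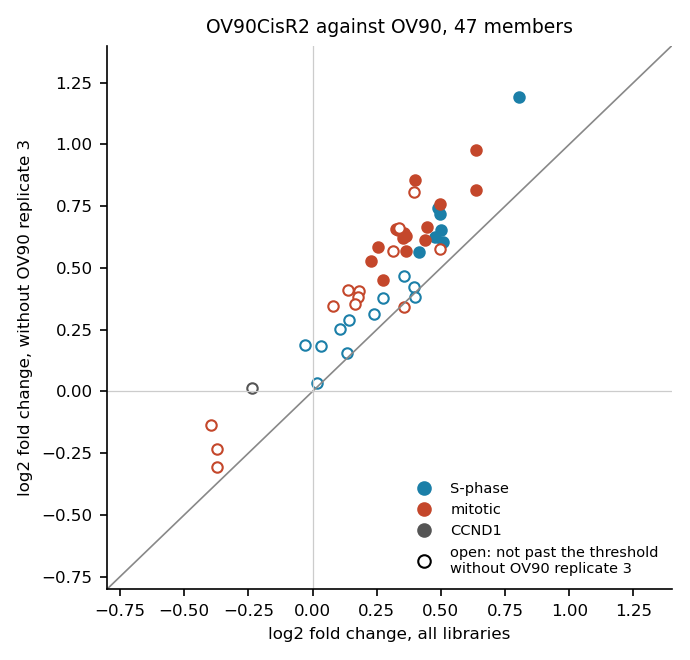
Log2 fold change of the 47 genes in OV90CisR2 against OV90 with all libraries (horizontal axis) and without OV90 replicate 3 (vertical axis); the diagonal marks equal values, colours mark the class, and filled circles passed the test without that library. The 22 filled circles, 7 S-phase and 15 mitotic, lie above the diagonal, and 0 genes passed with all libraries. For each of the 22, OV90 replicate 3 lay above the mean of the other OV90 libraries, so leaving it out could only raise the fold change.

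The 5 calls between the resistant lines were lost under several omissions of a library. In OV90CisR2 against OV90CisR1, RRM2, UBE2C, CDC6, NUSAP1 and RRM1 had positive differences under all 24 alternatives, and passed under 20, 17, 16, 16 and 13 of them. For each of the 5 all OV90CisR2 libraries lay above all OV90CisR1 libraries, so leaving out libraries could not turn the sign. Without any 1 of the OV90CisR2 libraries 0 of the 47 genes passed, where 442 to 663 of the 14233 genes tested were called. Leaving out OV90CisR1 replicate 2, only RRM2 passed, with 1010 of all genes called. Leaving out OV90CisR1 replicate 1, 3 of the 47 passed, with 952 of all genes called, and of the 5 only RRM2 and UBE2C passed. Leaving out OV90 replicate 3, 15 of the 47 passed, with 16.3% of all genes called. Over the 24 alternatives the log2 difference stayed between 0.78 and 0.94 for RRM2, 0.60 and 0.70 for UBE2C, 0.55 and 0.65 for CDC6, 0.54 and 0.67 for NUSAP1 and 0.43 and 0.61 for RRM1. UBE2C is the one of the 5 with a pseudogene of the same name listed in the table, UBE2CP5, which had 355 reads against 9129 of UBE2C over all libraries. The rule for counting reads shared by such copies is not stated.

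OV90CisR1 replicate 3 was the lowest library of its line for 26 of the 47 genes (55.3%) and the highest for 18 (38.3%), against 41.5% and 41.6% of all genes tested. It was the lowest for 19 of the 28 mitotic genes and for 6 of the 18 S-phase genes. OV90CisR2 replicate 2 was the lowest of its line for 16 genes (34%) and the highest for 26 (55.3%), against 36.5% and 38.8% of all genes. Both were lowest for 12 of the 47 genes (25.5%) and both were highest for another 12, near the 22.9% and 22.6% of all genes tested. Over the 47 genes the deviations of these 2 libraries from the mean of the others in their groups had a Pearson r of 0.75 and a Spearman rho of 0.49, against 0.34 and 0.38 over all 14233 genes. CENPA lay furthest out in both libraries, at -2.52 and -1.23, and its weight in the Pearson r was not tested. These correlations run across genes, which are not independent replicates, and the same 2 libraries enter all points. The deviation of OV90CisR1 replicate 3 had a Pearson r of 0.41 with the GC content of the last 300 bases of the transcript over the 47 genes and of 0.32 over 11742 genes, and that of OV90CisR2 replicate 2 had 0.29 and 0.22. For OV90 replicate 3 these were 0.05 and 0.05. The part of GC content in the results was not tested. Without OV90CisR1 replicate 3 and OV90 replicate 3, 33 genes rose in OV90CisR2 against OV90 (9 S-phase and 24 mitotic, with 25.5% of all genes called), 11 rose in OV90CisR1 against OV90 (27.4%), and 26 rose and BUB1 fell in OV90CisR2 against OV90CisR1 (26.3%).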

How the data were processed

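The authors deposited 1 table of normalised values, a signal on a scale of reads, for 43424 gene symbols in 9 libraries. Per the labels' protocols, libraries were made from Trizol RNA with a QuantSeq 3' kit and sequenced single-end on a NextSeq 550. The submitters' processing notes name GRCh38, Bowtie2, bedtools and edgeR, and no versions; annotation, strand and counting rules were not given in the sources used here, so reads shared with pseudogenes or overlapping genes are uncertain. Within each library 100% of values were whole multiples of 1 read (tolerance 1e-06), and whole reads were recovered from them. Totals per library ran from 5825708 to 7607679 reads without molecular identifiers, so precision is limited by counting error as well as by 3 libraries a group.

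Genes with at least 1 CPM of recovered reads in at least 3 of the 9 libraries were kept (14233). limma 3.58.1 (R 4.3.3, variance trend) was fitted to log2(value + 1) of all 9 libraries, with Benjamini-Hochberg adjustment over all genes and a threshold of 0.05. The pseudocount of 1 makes the fold changes of weakly expressed genes too small. The procedure was tested on simulated data. On the recovered reads, edgeR 4.0.16 quasi-likelihood called 2286 of all genes in OV90CisR1 against OV90, 506 in OV90CisR2 against OV90 and 1515 in OV90CisR2 against OV90CisR1, where limma called 2252, 468 and 1433; DESeq2 1.42.0 was a further alternative.

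The 47 genes, the lists and the alternatives were chosen with earlier results of these data known. All 238 list entries matched a symbol. Named with each library's value were MKI67, TOP2A, CDK1, PCNA, CCND1, E2F1, FOXM1, MYBL2 and, in each role and comparison, the 2 genes with the smallest unadjusted p; from each other list up to 2 rises and 2 falls past the threshold, and CDKN1A, CDKN1B and RB1. The list of checkpoint kinases and phosphatases is not reported here. Other genes named were chosen after their values were seen. Coordinates and promoter windows are RefSeq's on GRCh38.p14, and GC content is that of GENCODE transcripts.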

Additional observations from a re-analysis of the deposited data

Results flagged for a closer look

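For 5 genes the difference from OV90 itself differed between the resistant lines, by limma's test of OV90CisR2 against OV90CisR1, in which the shared OV90 libraries cancel. The effect against OV90 was higher in OV90CisR2 than in OV90CisR1 by 0.86 on the log2 scale for RRM2, 0.65 for UBE2C, 0.62 for NUSAP1, 0.61 for CDC6 and 0.55 for RRM1. Adjusted p-values over all genes were 0.014, 0.024, 0.027, 0.027 and 0.04 in that order. For each gene all 3 OV90CisR2 libraries lay above all 3 OV90CisR1 libraries, as they did for 19.4% of all genes tested. In that test 5 of the 47 genes passed, against 10.1% of all genes tested, 5.16% as higher and 4.9% as lower. None of the 5 passed against OV90 in either line.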

How the results depend on the processing

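The number of the 47 genes past the threshold depended on the libraries used. With all libraries it was 0 for OV90CisR2 against OV90, 0 for OV90CisR1 against OV90 and 5 for OV90CisR2 against OV90CisR1; leaving out each library in turn gave 0 to 22, 0 to 5 and 0 to 15. In the same order of comparisons, quantile scaling gave 1, 2 and 9, array quality weights 32, 3 and 25, omission of OV90 replicate 3 and OV90CisR1 replicate 3 gave 33, 11 and 27, and omission of these and OV90CisR2 replicate 2, chosen after seeing the data, gave 33, 14 and 30. Fits on only the 2 groups compared gave 2 for OV90CisR2 against OV90 and 12 for OV90CisR2 against OV90CisR1, and DESeq2 gave 1 and 10. For OV90CisR2 against OV90CisR1, a fit with no variance trend gave 1, and omission of OV90CisR1 replicate 3 and OV90CisR2 replicate 2, chosen after seeing the data, gave 1. The replicate block gave 2 there (RRM2 and AURKB). Same-numbered libraries had correlations of deviations between -0.31 and 0.09. With so few libraries a group these cannot decide whether the numbers pair the samples, and the labels state no pairing. Over all genes tested, calls numbered 468 for OV90CisR2 against OV90 and 1433 for OV90CisR2 against OV90CisR1, against 287 and 875 with the block, and DESeq2 called 878 for the first. Quality weights called 3538 and 4226 there and 4220 for OV90CisR1 against OV90, where limma with all libraries called 2252 and the fit on only these groups 771. In the order above, quantile scaling called 529, 2331 and 1746 of 14233 genes. Omission of OV90 replicate 3 and OV90CisR1 replicate 3 gave 3633, 3901 and 3750. Omission of OV90CisR2 replicate 2 as well gave 3783, 4688 and 4043. Fits on only the 2 groups called 683 for OV90CisR2 against OV90. For OV90CisR2 against OV90CisR1 they called 1731, DESeq2 2014 and the fit with no variance trend 1071. Omission of OV90CisR1 replicate 3 and OV90CisR2 replicate 2 gave 1036 there. The median over the mitotic genes for OV90CisR1 against OV90, -0.16 with all libraries, moved to 0.18 under both omissions that include OV90 replicate 3 and OV90CisR1 replicate 3. Under these, single genes passed with a reversed sign in OV90CisR1 against OV90: CCNB1 at 0.32 and CDC20 at 0.34 under both, and FOXM1 at 0.31 and PRC1 at 0.21 under the wider omission. With single libraries left out these 4 differences ranged from -0.31 to 0.18 (CCNB1), -0.26 to 0.29 (CDC20), -0.32 to 0.23 (FOXM1) and -0.36 to 0.055 (PRC1). Of 216 summary values under alternatives, 185 stayed close. For a count this meant within 1.5 times, or still 0. For a class median it meant a move smaller than its pooled SD between libraries, 0.15 (S-phase) and 0.29 (mitotic). The direction of a median was not part of this rule. The medians for OV90CisR1 against OV90 that turned positive without OV90 replicate 3 are among the 185. The cause of these changes was not tested. No pseudocount, low-value filter or TMM scaling changed a count of the 47 genes by over 1.5 times. Depth did not limit the filter: all 47 genes passed it.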
